A study of Mus musculus with 12 samples.

Results

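The stefin A genes lie side by side on mouse chromosome 16 and encode small cytosolic inhibitors of cysteine proteases. Of the 6 genes named for the cluster (Stfa1, Stfa2, Stfa3, Stfa2l1, BC100530 and BC117090), 5 were found by symbol among the 34303 gene symbols of the deposited table. BC117090 had no row of that name. Its GENCODE identifier, ENSMUSG00000079594, is listed in the table as Gm1975, and that gene is given beside the 5 members. The genes had been chosen by their high FPKM in the tumours against skin in these same libraries, so their difference between tumour and skin is given as a description with no test.

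RNA was sequenced from 12 mouse libraries of the C57Bl6 background. They comprise ultraviolet-induced cutaneous squamous cell carcinoma (cSCC) from wild-type (WT, n = 2) and TAp63-/- mice (n = 4), and untreated dorsal skin from WT (n = 3) and TAp63-/- mice (n = 3). TAp63 is the class of p63 isoforms with the N-terminal transactivation domain, and TAp63-/- animals lack it. The tumour-bearing mice, over 35 weeks of age, had received 2.5 kJ/m2 of ultraviolet light 3 times weekly, while the skin donors were 4 weeks of age.

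The unit, FPKM (fragments per kilobase of transcript, relative to library size), was inferred from the submitters' tools, and all 12 libraries share 1 distribution of values, so read depth is unknown. The targeted gene, Trp63, ranged over 97.3 to 141 FPKM in tumours and 100.4 to 119 in skin of WT mice, and over 109 to 258 and 84.5 to 111 in the TAp63-/- tissues. That value adds TAp63 and the other isoforms and does not check the deletion. By Xist and Y-linked genes, the 6 skin libraries and TAp63-/- cSCC 1 were male and the other 5 tumours female, so the tissues also differed in age, in exposure and, but for that tumour, in sex. A listed 0 is not proof of silence: 367 symbols read 0 in a library while another library of the group had at least 5 FPKM.

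Stefins, also called type 1 cystatins, have no signal peptide and act inside the cell. They block papain-like cathepsins such as cathepsins B, H, L and S by wedging a hairpin loop into the active site. Humans carry a single stefin A gene, whose product is abundant in stratified epithelia and is found in the cornified layer, whereas mice carry a cluster of copies, several of which are known from myeloid cells.

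The members are copies of one another to differing degrees, and the middle coding exon, which encodes the first hairpin loop, shows how they group. It has 102 bases in each of the 6 genes in GENCODE M21 (genome build mm10). The sequences are printed in the coding direction, with bases that differ from Stfa2 in capitals.
Stfa2: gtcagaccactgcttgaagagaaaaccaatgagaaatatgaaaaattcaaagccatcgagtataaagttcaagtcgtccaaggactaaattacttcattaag
Stfa2l1: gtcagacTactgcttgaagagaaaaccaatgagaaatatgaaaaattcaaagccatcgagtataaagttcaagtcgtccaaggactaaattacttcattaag
Stfa3: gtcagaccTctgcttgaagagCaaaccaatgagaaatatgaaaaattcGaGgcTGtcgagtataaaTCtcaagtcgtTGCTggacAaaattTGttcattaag
Stfa1: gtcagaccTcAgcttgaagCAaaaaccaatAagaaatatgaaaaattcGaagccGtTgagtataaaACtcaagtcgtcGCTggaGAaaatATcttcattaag
BC100530: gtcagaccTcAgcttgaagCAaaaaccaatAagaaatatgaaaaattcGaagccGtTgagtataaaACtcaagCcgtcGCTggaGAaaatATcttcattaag
Gm1975: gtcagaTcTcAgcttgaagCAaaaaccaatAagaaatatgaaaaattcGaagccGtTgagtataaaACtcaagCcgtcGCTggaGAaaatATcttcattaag

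The exons lie on chromosome 16 at chr16:36405130-36405231 (Stfa2, minus strand), chr16:36159946-36160047 (Stfa2l1, plus), chr16:36452151-36452252 (Stfa3, minus), chr16:36280466-36280567 (Stfa1, plus), chr16:36364212-36364313 (BC100530, minus) and chr16:36322921-36323022 (Gm1975, minus). Stfa2 and Stfa2l1 differed at 1 base. Stfa1 and BC100530 also differed at 1 base, as did BC100530 and Gm1975. Stfa3 stood apart from both groups, with 15 differences from Stfa2 and 13 from Stfa1. In all, 78 of the 102 positions were the same in the 5 members, and the longest run without a difference was 17 bases.

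This likeness bears on the values. Of all stretches of 50 bases in the Stfa1 transcript, 26.9% occurred unchanged in a transcript of another gene of the cluster, and 33.5% of those of BC100530 did. The shares were 14.7% for Stfa2 and 16.8% for Stfa2l1, in both cases with each other, 33.7% for Gm1975 and 0% for Stfa3. How reads that fit several copies were assigned, and the read length, are not given in the sources used here. Values of Stfa1, BC100530, Gm1975, Stfa2 and Stfa2l1 are therefore uncertain by an unknown amount. Stfa3 had no shared stretch at that length, but only unchanged stretches were searched. The predicted stefin Gm4758 and sequence outside the cluster were not searched, so the reads of Stfa3 are not shown to be unique.

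The genes also share sequence outside the coding exons. RefSeq promoters (GRCm38.p6) were matched for the 5 members, with BC100530 listed there as Cstdc5. The 120 bases before each annotated start are shown, with the run that all 5 have in common in capitals.
Stfa2: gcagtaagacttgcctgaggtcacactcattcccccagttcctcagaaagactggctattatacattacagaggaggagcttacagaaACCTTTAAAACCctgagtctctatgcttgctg
Stfa2l1: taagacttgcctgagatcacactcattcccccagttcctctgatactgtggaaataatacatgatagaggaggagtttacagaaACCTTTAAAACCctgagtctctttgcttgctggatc
Stfa3: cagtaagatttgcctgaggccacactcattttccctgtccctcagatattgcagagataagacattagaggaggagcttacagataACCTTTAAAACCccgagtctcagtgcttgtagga
Stfa1: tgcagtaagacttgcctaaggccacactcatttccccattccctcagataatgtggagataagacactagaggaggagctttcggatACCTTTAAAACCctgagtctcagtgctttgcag
BC100530: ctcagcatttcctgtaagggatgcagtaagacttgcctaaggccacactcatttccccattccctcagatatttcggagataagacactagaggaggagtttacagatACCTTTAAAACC

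The windows are chr16:36408364-36408483 (Stfa2, minus strand), chr16:36156691-36156810 (Stfa2l1, plus), chr16:36455393-36455512 (Stfa3, minus), chr16:36277028-36277147 (Stfa1, plus) and chr16:36367571-36367690 (BC100530, minus). The run of 12 bases, ACCTTTAAAACC, began 32 to 36 bases before the start in 4 members and 12 bases before the annotated start of BC100530. Searched on the given strand in the same window of all 32851 promoters of the table, it was found in 10, of which 9 lie in the cluster and 1, Gm39539, on chromosome X. Apart from the members, those in the cluster were the promoters of Csta3 (Gm5416 in the deposited table), Cstdc4 (Gm5483), 1 of the Cstdc3 starts and the gene that RefSeq calls Gm7260. The promoter entry of that Cstdc3 start, chr16:36307770-36308069, covers the left edge of Gm4758, which was listed at 0 in every library. The windows of Csta1 (Csta in the deposited table) and of the start that RefSeq gives for Csta2 did not hold it. The canonical TATAAA was in none of the 5 windows on either strand and in 6.3% of all promoters. TTTAAA lies inside the run, which was chosen as common to the 5 windows. Its presence in all 5 was therefore fixed in advance and is not set against its share of all promoters. Over the 100 bases that end with the run, BC100530 and Stfa1 were identical at 94.0%, Stfa2 and Stfa2l1 at 88.0%, and the lowest pairs at 81.0%.

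All members were high in the tumours and low in skin, and the order of their levels was not the same in both tissues. Each of the 5 had its 6 tumours above its 6 skin libraries, which was also the case for 11.0% of the 14752 genes tested. All 5 passed the filter on low values (1 FPKM in 2 libraries), Stfa2l1 through its tumours alone. BC100530 (ENSMUSG00000071561), a stefin A gene described by sequence only, measured 993 and 2994 FPKM in WT tumours and 8072, 1847, 3085 and 4069.8 in TAp63-/- tumours. In skin it had 14.6, 23.6 and 7.09 FPKM in WT and 0.69, 54.3 and 66.6 in TAp63-/- animals. It was the highest member in 5 of the 6 tumours and ranked 10th of all gene symbols in TAp63-/- cSCC 1 and between 17th and 85th in the others. Its log2 difference between tumour and skin, taken on FPKM + 1, was 6.89 in WT and 7.64 in TAp63-/- mice.

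Stfa3 (ENSMUSG00000054905), which like its neighbours inhibits papain-like proteases, had 266 and 1209.7 FPKM in WT tumours and 4268, 6594, 2639 and 3085 in TAp63-/- tumours. In skin it was the highest member in all 6 libraries, at 21.8, 33.7 and 14.6 in WT and 0.705, 95.3 and 115 in TAp63-/- skin. The lowest tumour was 2.31 times the highest skin library, the narrowest gap among the members. TAp63-/- cSCC 2 led and WT cSCC 1 was lowest. The log2 difference between tumour and skin was 4.62 in WT and 7.19 in TAp63-/- mice.

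Stfa1 (ENSMUSG00000071562) had 269 and 513 FPKM in WT tumours and 2748, 411, 391 and 1269 in TAp63-/- tumours. Its skin values were 3.48, 6.11 and 0.945 in WT and 0.185, 8.77 and 11.3 in TAp63-/- mice. TAp63-/- cSCC 1 and 4 stood above the other 4 tumours, and the remaining TAp63-/- tumours lay between the WT tumours. The lowest tumour was 23.8 times the highest skin library, and the log2 differences were 6.56 in WT and 7.37 in TAp63-/- mice.

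Stfa2 (ENSMUSG00000022902) had 110.3 and 957 FPKM in WT tumours and 1002, 1269, 787 and 787 in TAp63-/- tumours. Skin had 4.74, 2.98 and 0.495 FPKM in WT and 0.181, 3.31 and 3.60 in TAp63-/- mice. Apart from WT cSCC 1, its tumours spanned less than those of any other member. Equal values in TAp63-/- cSCC 3 and 4 reflect the shared distribution, in which equal ranks have equal values. The lowest tumour was 23.3 times the highest skin library, and the log2 differences were 6.65 in WT and 8.36 in TAp63-/- mice.

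Stfa2l1 (ENSMUSG00000059657), the near copy of Stfa2, was far lower: 11.9 and 6.22 FPKM in WT tumours and 21.4, 50.5, 9.84 and 8.61 in TAp63-/- tumours. It was listed at 0 in WT skin 2 and 3 and in TAp63-/- skin 1, and had 0.514, 0.599 and 1.19 FPKM in the other 3 skin libraries. Gm1975 had 17.0 and 98.8 FPKM in WT tumours and 138, 26.0, 125 and 211 in TAp63-/- tumours, with at most 0.728 in skin. On this scale, which is per transcript length, both genes stayed below the 4 other members in every tumour. Their log2 differences between tumour and skin were 3.07 and 3.62 for Stfa2l1 and 4.85 and 6.16 for Gm1975, in WT and TAp63-/- mice.

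**Figure D1:**
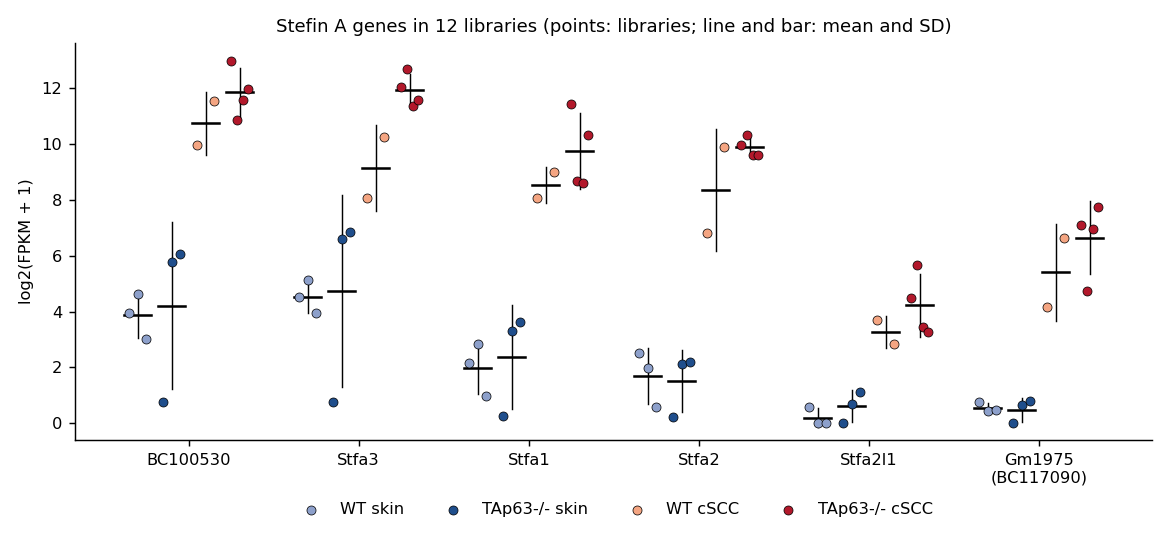
Level of each stefin A gene as log2(FPKM + 1) on the vertical axis, by gene on the horizontal axis; points are libraries, coloured by group, and the line and bar are the mean and SD of a group. In each gene the 6 tumours sit above the 6 skin libraries, and TAp63-/- skin 1 is the lowest or joint lowest point of its group.

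Together the 5 members made up 3665 ± 2849 FPKM (SD, n = 2) in WT tumours and 10603 ± 3919 (n = 4) in TAp63-/- tumours, beside 44.9 ± 21.6 (n = 3) in WT skin and 121 ± 104 (n = 3) in TAp63-/- skin. That was between 0.212% and 2.06% of all FPKM in a tumour and at most 0.0254% in skin. The sum was lowest in WT cSCC 1 (1650.3 FPKM) and highest in TAp63-/- cSCC 1 (16111). TAp63-/- skin 1 had only 1.76 FPKM, against 162 and 198 in the other libraries of its group and 23.2 to 66.4 in WT skin. In the same library the mean log2(FPKM + 1) of 10 wound keratinocyte markers (2.99, against 3.69 to 5.28 in the other skin libraries) and of calprotectin and lipocalin genes (1.88, against 2.66 to 4.69) was lowest as well. So were the summed neutrophil markers (11.3 FPKM, against 14.1 to 19.6) and granulocyte recruiting signals (2.28, against 3.69 to 6.13), while muscle markers (10916, against 5664 to 8221) and resting suprabasal keratinocyte markers (8535, against 2925 to 6068) were highest. The part of these genes in the result was not tested. In these bulk samples, fewer cells of a type and less RNA per cell cannot be told apart.

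The mix of members, given as a description, was not the same in tumour and skin. BC100530 contributed 44.1% to 60.2% of the sum in 5 tumours and 30.6% to 39.1% in skin, with no overlap. Stfa3 contributed 40.0% to 63.2% in skin and 16.1% to 38.2% in those 5 tumours. TAp63-/- cSCC 2 departed from the other tumours, with 64.8% Stfa3 and 18.2% BC100530, shares beyond the skin range for both genes. The ratio of Stfa3 to BC100530 was 3.57 in that tumour, 0.268 to 0.855 in the others and 1.02 to 2.06 in skin. Stfa2l1 never made up more than 1.14%.

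**Figure D2:**
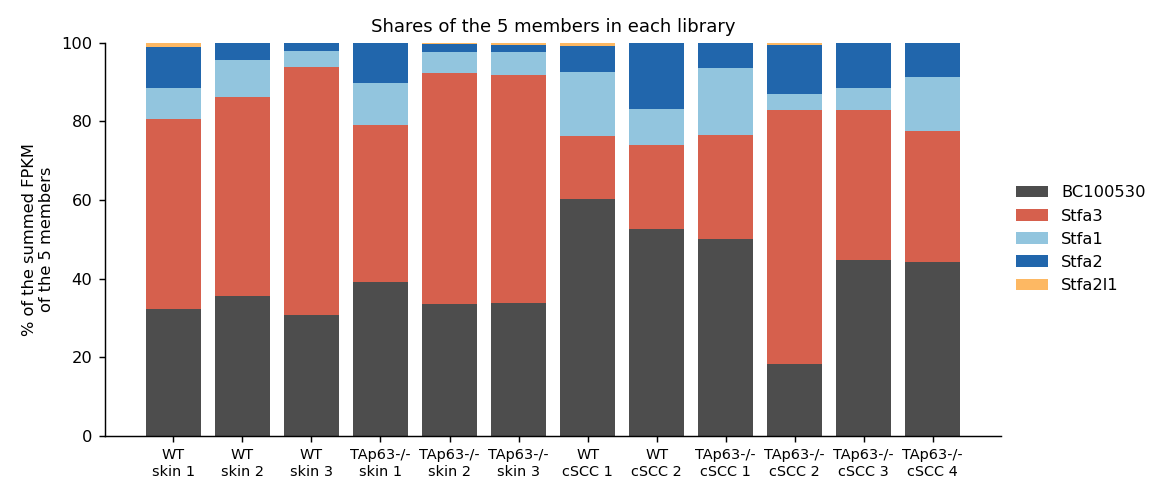
Share of each of the 5 members (vertical axis, percent of their summed FPKM) in each of the 12 libraries (horizontal axis), stacked to 100%. BC100530 is the largest block in every tumour except TAp63-/- cSCC 2, where Stfa3 takes 64.8%; Stfa3 is the largest block in every skin library.

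The comparison of genotypes asked whether loss of TAp63 changed these genes, in skin or in carcinoma. In skin the genotypes overlapped for all 5 members. The labels do not say whether the libraries of a group came from separate animals, so p-values measure only the spread between these samples. With limma on log2(FPKM + 1), 0 of the 5 passed and 0 had an unadjusted p below 0.05, where 0.0203% of all genes passed (3 genes) and 5.0% had an unadjusted p below 0.05. Log2 differences (TAp63-/- minus WT) ran from -0.18 for Stfa2 (SE 0.71) to 0.40 for Stfa1 (SE 1.0) and Stfa2l1 (SE 0.32). That of BC100530 was 0.34 (SE 1.47) and that of Stfa3 0.21 (SE 1.66), and adjusted p was between 0.923 and 0.992. The sign turned on single libraries. Stfa3, BC100530 and Stfa1 turned negative without TAp63-/- skin 3 (-0.85, -0.59 and -0.22), TAp63-/- skin 2 or WT skin 3, and rose to 2.19, 2.07 and 1.47 without TAp63-/- skin 1. Stfa2 turned positive without TAp63-/- skin 1 (0.46) or WT skin 1 (0.23).

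In tumours every member had a higher mean in TAp63-/- than in WT mice, and 0 of 5 passed with limma, as did 0.0% of all genes. Stfa3 had the largest difference (2.78, SE 0.70, limma adjusted p = 1, unadjusted p = 0.00589), and 2.84% of all genes had an unadjusted p below 0.05. All 4 TAp63-/- tumours had more Stfa3 than both WT tumours, which was the case for 5.71% of all genes. Stfa3 was the only member without overlap between the genotypes. For Stfa2 the difference was 1.53 (SE 0.80), for Stfa1 1.22 (SE 0.85), for BC100530 1.10 (SE 0.73), for Stfa2l1 0.95 (SE 0.70) and for Gm1975 1.24 (SE 0.97), each at a limma adjusted p of 1. Without WT cSCC 1 the difference fell to -0.02 for Stfa2, 0.30 for BC100530 and 1.68 for Stfa3. Without WT cSCC 2 it rose to 3.08, 1.90 and 3.87 for the same genes. The WT level thus rests on single libraries, and WT cSCC 1 was itself the lowest tumour for 4 of the 5 members. TAp63-/- cSCC 1, the male tumour, had the highest Stfa1 and BC100530.

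The genotype by tissue interaction, which shares its libraries with both of these comparisons, was 2.57 for Stfa3 (SE 1.90), 1.71 for Stfa2 (SE 1.13), 0.82 for Stfa1 (SE 1.39), 0.76 for BC100530 (SE 1.73) and 0.55 for Stfa2l1 (SE 0.83). None of the 5 passed with limma (adjusted p = 1 for each, with 0 of 5 at an unadjusted p below 0.05), where 0.0271% of all genes passed and 3.01% had an unadjusted p below 0.05. With standard errors of this size, these results do not show that the genotypes were alike.

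**Figure D3:**
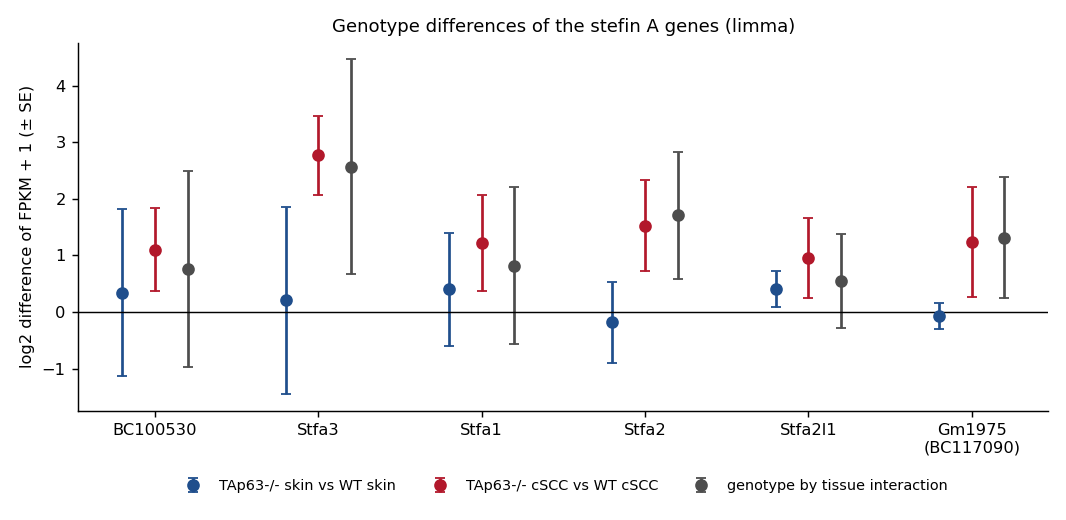
Log2 difference of FPKM + 1 (vertical axis; points, with bars of 1 standard error from limma) for each stefin A gene (horizontal axis) between genotypes in skin, between genotypes in tumours, and for the interaction. The skin differences lie near 0 with wide bars, and Stfa3 has the largest tumour difference, 2.78.

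The other stefin genes of the locus were followed next. From Stfa2l1 to Stfa3 the members span 298.6 kb, and 20 further entries lie between them. Of these, 14 were listed at 0 in all 12 libraries (11 of the small RNA named U6, with Gm10913, Gm10813 and the predicted stefin Gm4758), and 1 other U6 entry was above 0 in 1 library. The remaining 5 were Gm1975, Gm5483, Gm5416, 2010005H15Rik and Gm15845. Gm5483, Gm5416 and 2010005H15Rik, all of them stefin genes, had every tumour above every skin library, as had 11.0% of all genes tested. These stefin genes passed the filter on low values through the tumours alone, so their difference from skin is given without a test.

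Gm5483 was listed at 0 in all 6 skin libraries and had 3.92 and 5.71 FPKM in WT tumours and 6.32, 18.2, 7.25 and 4.09 in TAp63-/- tumours. Its log2 difference was 2.52 in WT and 3.13 in TAp63-/- mice. Gm5416 went from at most 0.455 FPKM in skin to 25.4 and 197 in WT tumours and 368, 22.1, 107 and 600.5 in TAp63-/- tumours, a log2 difference of 5.86 and 7.08. Gm15845, an antisense entry, had no more than 1.89 FPKM in any library and at most 0.205 in skin, so it too was tested only through its tumours (1.21 in TAp63-/- mice and 0.25 in WT).

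2010005H15Rik, also listed at 0 in all skin libraries, had 3.75 and 52.5 FPKM in WT tumours and 9.50, 5.04, 102 and 12.5 in TAp63-/- tumours, with TAp63-/- cSCC 3 far above the rest of its group. Its log2 difference was 3.99 in WT and 4.11 in TAp63-/- mice. Csta, a stefin A gene just outside the members' span, had 23.6 to 38.6 FPKM in every skin library, and its lowest tumour (34.8) lay within that range. It passed in TAp63-/- mice (2.93, SE 0.77, limma adjusted p = 0.0168) and did not in WT (1.57, SE 0.91, adjusted p = 0.291). Cstb, the stefin B gene on another chromosome and a general inhibitor made by most cells, rose by 0.78 in TAp63-/- tumours (adjusted p = 0.0346), and its difference in WT was 0.72 (adjusted p = 0.132). Csta and Cstb, the other stefins that reached 1 FPKM in skin, thus passed in TAp63-/- mice (4 tumours) and not in WT (2 tumours). In TAp63-/- mice 13.0% of all genes rose and 27.2% changed in either direction, and in WT 4.66% rose and 11.4% changed. The genotype by tissue interaction was 1.37 for Csta (SE 1.19) and 0.06 for Cstb (SE 0.38) and passed for neither, so these calls do not show a difference between genotypes.

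The genes on either side of the cluster were compared in the same way. Of 30 entries within 500 kb, 18 were tested. In WT mice 1 rose and 1 fell, with a median of 0.25, and in TAp63-/- mice 4 rose and 3 fell, with a median of 0.46, Csta being 1 of the 4. Over all genes, 4.66% rose and 6.77% fell in WT, and 13.0% rose and 14.2% fell in TAp63-/- tumours. All 6 tumours exceeded all 6 skin libraries in 3 of the 18, which was the case for 11.0% of all genes tested.

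**Figure D4:**
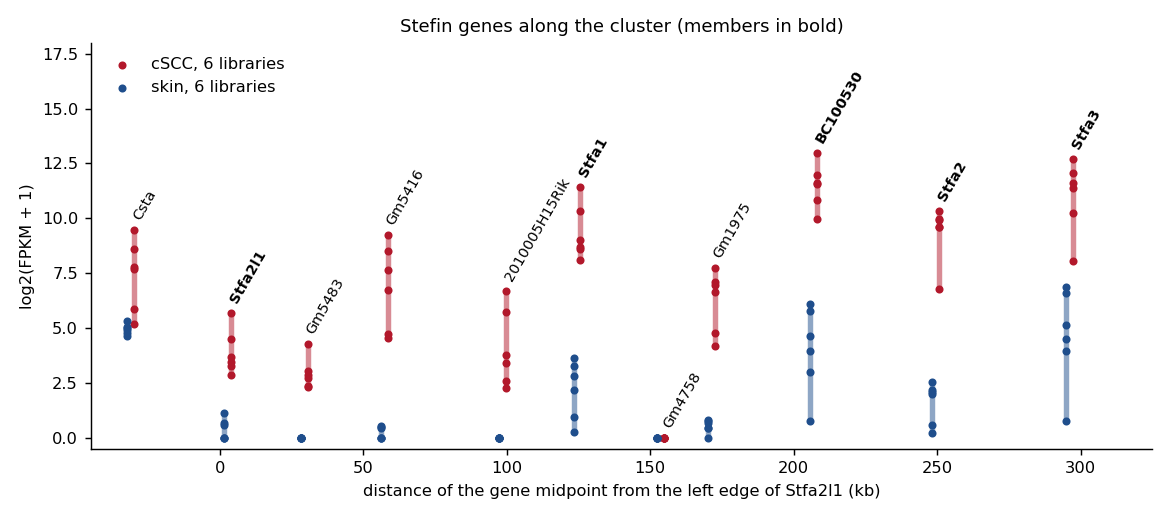
Level of the stefin genes of the locus as log2(FPKM + 1) (vertical axis) against the distance of the gene's midpoint from the left edge of Stfa2l1 in kb (horizontal axis, the pairs of columns set slightly apart); red points are the 6 tumours, blue points the 6 skin libraries, and bars their range. Every gene except Csta and Gm4758 has its tumours wholly above its skin libraries.

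The members peaked in different tumours. Likeness over the 6 tumours was taken as the root mean square difference of log2(FPKM + 1) after centring each gene, among 45 pairs of stefin genes of the locus, as a description without a test. Stfa1 and BC100530 were the closest pair (0.50), followed by Stfa2l1 and Gm5483 (0.56), Stfa2 and Stfa3 (0.67), and BC100530 and Gm1975 (0.69). Stfa1, BC100530 and Gm1975 are also the genes whose exons differ by 1 or 2 bases, though Stfa1 and Gm1975 were only the 10th closest pair (0.98). The part of shared reads in this likeness was not tested. Stfa2 and Stfa2l1, which differ by 1 base in that exon, were only the 22nd closest pair (1.29).

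Stfa3, Stfa2, Stfa2l1 and Gm5483 were highest in TAp63-/- cSCC 2. Stfa1 and BC100530 were highest in TAp63-/- cSCC 1, Gm1975 and Gm5416 in TAp63-/- cSCC 4, and Csta and 2010005H15Rik in TAp63-/- cSCC 3. TAp63-/- cSCC 2 was also the tumour with the most Cxcr2 (9.06 FPKM, against 3.68 to 8.56 in the other tumours), a chemokine receptor of neutrophils, and Csf3r (15.8, against 2.49 to 9.71), the receptor for granulocyte colony-stimulating factor. The summed neutrophil markers were 109 FPKM there and 32.9 to 94.1 in the other tumours. Macrophage and monocyte markers were likewise highest in that tumour (696 FPKM, against 139 to 344). So were the summed mast cell and basophil markers (194, against 18.8 to 116) and granulocyte recruiting signals (257, against 33.2 to 203). The summed wound keratinocyte markers were lowest there (9701 FPKM, against 12501 to 38522). In WT cSCC 1, by contrast, the neutrophil sum was 94.1 FPKM while 4 of the 5 members were at their lowest. The mean log2(FPKM + 1) of granulocyte recruiting signals, unlike their sum, was highest in WT cSCC 1 (3.05, against 2.66 in TAp63-/- cSCC 2). S100a8, a subunit of calprotectin, was highest in TAp63-/- cSCC 1 (15539 FPKM, against 328 to 2748 in the other tumours), as were Stfa1 and BC100530. The part of these cell markers in the pattern was not tested.

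**Figure D5:**
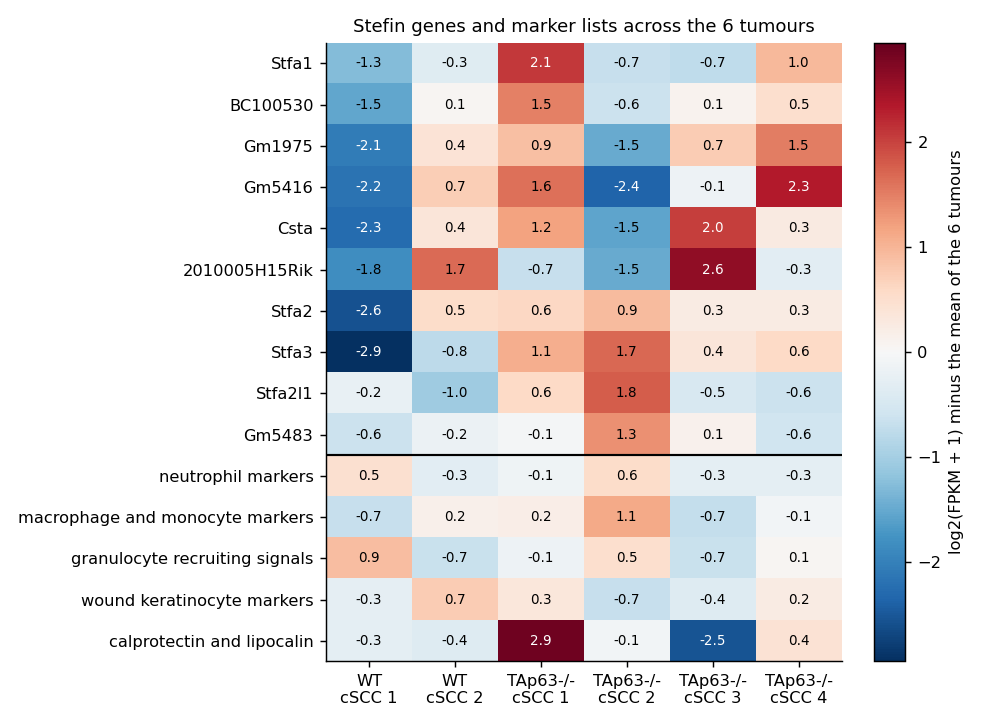
Rows are stefin genes of the locus (above the line, log2(FPKM + 1)) and marker lists (below it, mean log2(FPKM + 1) of the list), columns are the 6 tumours, and colour and number give the difference from the row's mean over the 6 tumours. Stfa3, Stfa2l1 and Gm5483 peak in TAp63-/- cSCC 2, and Stfa1 and BC100530 in TAp63-/- cSCC 1.

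Neutrophils are a known source of stefin A transcripts. Their summed markers ran from 32.9 to 109 FPKM in tumours and from 11.3 to 19.6 in skin, so every tumour was above every skin library. Of 18 neutrophil markers 10 were tested, and 6 of these (Cxcr2, Fpr1, Fpr2, Hdc, Mmp8 and Trem1) passed the filter on low values through the tumours alone, so the count is not read against that of all genes. It was 1 higher in WT (Cxcr2, 2.33) and 4 higher in TAp63-/- tumours (Cxcr2, 2.49; Trem1, an activating receptor of myeloid cells, 1.52; Fpr1, a receptor for formylated peptides, 1.26; and Csf3r, 1.61, limma adjusted p = 0.0296). Csf3r did not pass in WT (1.47, adjusted p = 0.12), and Fpr2 had 1.95 in WT and 1.71 in TAp63-/- mice. Without TAp63-/- skin 1 or 2, 1 was higher in TAp63-/- tumours (2 without TAp63-/- skin 3 or WT skin 2), and without WT cSCC 2 or TAp63-/- cSCC 2, 4 were higher in WT. Mpo, the myeloperoxidase of their granules, was at most 0.102 FPKM in any library and Elane, the granule elastase, at most 0.298, and Ly6g, the surface marker of mature mouse neutrophils, was at most 0.893 and listed at 0 in 2 tumours and 5 skin libraries. Of 9 granulocyte recruiting signals tested, 8 also passed the filter through the tumours alone, among them Cxcl5 (2.50 and 2.64), a neutrophil-attracting chemokine. The other, Il1b, rose by 3.10 in WT (adjusted p = 0.0212) and 3.26 in TAp63-/- tumours (adjusted p = 0.00298). In TAp63-/- mice 1 of 10 tested macrophage and monocyte markers fell, where 14.2% of all genes did. It was Mrc1, the mannose receptor (-1.64, limma adjusted p = 0.041), with Csf1r at -1.10 and Emr1 at -1.04. In WT mice 0 of 10 passed, where 6.77% of all genes fell. The TAp63-/- count was 5 without TAp63-/- cSCC 2, 2 without either WT tumour and 0 without any of TAp63-/- cSCC 1, 3 or 4, WT skin 2 or 3, or TAp63-/- skin 1, 2 or 3, and the WT count was 1 without WT cSCC 2 or TAp63-/- cSCC 2. The part of these cells in the stefin levels was not tested.

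S100a8 and S100a9, which encode calprotectin and are made by myeloid cells and by stressed keratinocytes alike, rose in both genotypes. S100a9 changed by 6.58 in WT (SE 1.34, limma adjusted p = 0.011) and 7.10 in TAp63-/- mice (SE 1.12, adjusted p = 0.00108), and S100a8 by 5.76 and 6.61. Lcn2, a siderophore-binding lipocalin, did not pass (2.42 and 2.67, adjusted p = 0.175 and 0.0505). Without WT cSCC 1, 0 of the 3 rose in WT, and 1 without WT cSCC 2 or any of the WT skin libraries. Keratinocyte genes of wounds rose in 8 of 10 in both genotypes, where 4.66% of all genes rose in WT and 13.0% in TAp63-/- tumours. Among the 8 is Il24, which passed the filter on low values through the tumours alone, so its rise is not a test. Krt6b (8.85 in WT and 8.74 in TAp63-/- mice) and Krt16 (7.06 and 7.29), keratins of injured epidermis, led the list. Sprr1b was at 8.89 in TAp63-/- mice and Il1a at 2.94 in WT.

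Over all 12 libraries, the genes outside the cluster whose centred log2(FPKM + 1) was most like the summed members were Krt16 (root mean square difference 1.36), Sprr1b (1.42) and Lce3c (1.43), both of the cornified envelope, 2610528A11Rik (1.44) and S100a8 (1.50). For Stfa2 they were Krt16 (0.85), Krt6b (1.03) and Lce3c (1.09), for Stfa1 Lce3c (0.93), S100a9 (0.95) and 2610528A11Rik (1.03), and for BC100530 Krt16 (1.17), Sprr1b (1.25) and Lce3c (1.26). For Stfa3 they were 2610528A11Rik (1.53), Lce3c (1.60) and Krt16 (1.63). Stfa2l1 had other neighbours in this measure: Tmprss11bnl (0.57), Chi3l3 (0.61), a chitinase-like protein of myeloid cells, and Pmaip1 (0.66). All these values rest largely on the step between tumour and skin, with which age, exposure and sex also changed.

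The proteases that stefins inhibit were followed as a list. Of 10 papain-like cathepsin genes 0 rose in either genotype (1 without TAp63-/- cSCC 3); 1 fell in WT tumours (Ctsk, by 1.69, limma adjusted p = 0.05) and 4 fell in TAp63-/- tumours, among them Ctsk (-2.45, adjusted p = 0.00164), a collagen-degrading enzyme, Ctsh (-0.82) and Ctso (-0.97). The WT count was 0 under most alternatives. In TAp63-/- mice 1 gene fell without TAp63-/- skin 1 and 2 fell without TAp63-/- skin 2. Of all genes, 6.77% fell in WT and 14.2% in TAp63-/- tumours. The median of the 10 was -0.53 in WT and -0.61 in TAp63-/- mice, beside 0.04 and 0.10 over all genes. Ctsl, a main target of stefin A, had 73.3 to 267 FPKM in tumours and 70.5 to 128 in skin. Ctsc, which activates the serine proteases of granulocytes, had a log2 difference of 1.29 in WT (adjusted p = 0.0877) and 1.0 in TAp63-/- mice (adjusted p = 0.0686). Lgmn, the asparagine-cleaving protease that some secreted cystatins inhibit, differed by -0.04 and 0.57 and did not pass.

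Among the secreted type 2 cystatins, 2 of the 3 tested fell in both genotypes, where 6.77% of all genes fell in WT and 14.2% in TAp63-/- tumours. Cst7, a cystatin of immune cells, did not pass (0.65 and 0.16). Cst3, the cystatin C of most tissues, fell by 1.37 in WT (limma adjusted p = 0.0214) and by 1.21 in TAp63-/- tumours (adjusted p = 0.00766). Cst6, the cystatin of the epidermis and hair follicle, fell by 2.20 (adjusted p = 0.044) and 2.57 (adjusted p = 0.00473). Both calls in WT were lost without WT cSCC 1, WT skin 2 or WT skin 3, and 1 of them without WT skin 1, TAp63-/- skin 2 or 3, or TAp63-/- cSCC 1 or 4. Fetub, a cystatin-superfamily member that passed the filter through the tumours alone, had 3.73 and 3.23.

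The other marker lists describe the tissue around these genes. Over all genes, 4.66% rose and 6.77% fell in WT (2 tumours), and 13.0% rose and 14.2% fell in TAp63-/- mice (4 tumours). Basal keratinocyte markers rose in 1 of 6 in WT and 4 of 6 in TAp63-/- tumours, and 1 fell in both. Krt14, a basal keratin, was at 3.06 and 2.89, and Krt15, a keratin of resting basal and follicle stem cells, at -3.64 and -4.46. The WT count was 3 higher without WT cSCC 2 or TAp63-/- cSCC 1 and 2 without TAp63-/- cSCC 3 or TAp63-/- skin 1. Of 6 resting suprabasal keratinocyte markers 1 fell in WT and 3 in TAp63-/- tumours, led by Krt77 (-5.94 and -8.12), where 6.77% and 14.2% of all genes fell. Without WT cSCC 2, 2 fell in WT, and without TAp63-/- skin 1, 1 fell in TAp63-/- tumours. Cornified envelope genes went both ways, with 2 of 12 up and 1 down in WT and 3 up and 4 down in TAp63-/- tumours. Flg2 fell (-3.42 and -4.80) while Tgm3, a transglutaminase, rose (4.28 and 4.04). Sprr3, which was not called in either genotype, passed the filter on low values through the tumours alone. None of the 12 was higher in WT without WT cSCC 2 or any of the WT skin libraries, and 1 was without TAp63-/- cSCC 1 or 4 or TAp63-/- skin 2. In TAp63-/- tumours 0 were higher without TAp63-/- skin 1, and 1 higher and 2 lower without TAp63-/- skin 2. Lower genes in WT numbered 2 without WT cSCC 2 or TAp63-/- skin 1. Muscle markers fell in 6 of 7 in WT and 7 of 7 in TAp63-/- tumours, among them Neb (-3.86 and -4.98). Of 8 mast cell and basophil markers 0 passed in WT, and in TAp63-/- tumours 1 did, the basophil protease Mcpt8 (1.02), which passed the filter through the tumours alone. That call was lost without TAp63-/- skin 1. Without TAp63-/- cSCC 2, 3 fell in TAp63-/- tumours, and without WT cSCC 2 or TAp63-/- cSCC 2, 1 fell in WT. No eosinophil marker was tested. With limma, 0 genes of the 16 lists passed in either genotype comparison or in the interaction. Of all genes, 0.0203% passed in skin, 0.0% in tumours and 0.0271% in the interaction. Of the list genes tested, 9 in skin, 2 in tumours and 2 in the interaction had an unadjusted p below 0.05. That was a larger share than of all genes in skin (5.0%). It was a smaller share than of all genes in tumours (2.84%) and in the interaction (3.01%). The part of these changes in the stefin levels was not tested.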

How the data were processed

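RNA sequencing values of 12 libraries were used as deposited by the authors. Per the submitters' processing notes, TopHat2 2.0, Cufflinks 2.0 and the mm10 build were used. The unit of the deposited values, FPKM, was inferred from these tools and from the values, and so was a quantile normalization, since all 12 columns hold 1 distribution; neither step is stated in the sources used here. Read depth is unknown, so no counting interval is given.

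The members and gene lists were chosen with earlier results of these data known. Entries sharing a symbol were added, giving 34303 symbols, of which 14752 with at least 1 FPKM in 2 or more libraries were tested. limma 3.58.1 (R 4.3.3) was fitted to log2(FPKM + 1) with a variance trend, two-sided, and p-values were adjusted by Benjamini-Hochberg over all genes tested, with calls below 0.05. Genotypes were compared on the libraries of 1 tissue, and tumour with skin and the interaction on all 12. The script was tested on simulated data. Named genes were the members, the other stefins and entries of the locus, the 3 genes with the smallest p in each list, all of calprotectin and lipocalin, the defining neutrophil markers and the nearest genes in likeness (root mean square difference); Ctsl was chosen after its values were seen, and some of the 3 per list are left out of the text. Exon sequences came from GENCODE M21 and promoters from RefSeq. Alternatives were pseudocounts of 0.1 and 5, no filter, median-of-ratios rescaling, other libraries in the fit, no variance trend, the highest entry per symbol and leaving out each library.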

Additional observations from a re-analysis of the deposited data

Results flagged for a closer look

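2010005H15Rik, a stefin gene inside the cluster, stood out in a single tumour on the FPKM scale. It had 101.7 FPKM in TAp63-/- cSCC 3, beside 5.04, 9.50 and 12.5 in the other TAp63-/- tumours, a gap of 0.923 of the group's range. On log2(FPKM + 1) that tumour had 6.68, beside 2.59, 3.39 and 3.76. The gap is a smaller part of the range on that scale and lies below the cutoff of 0.829. In all, 11 groups of 4 tumours were examined. If values are normally distributed, which FPKM need not be, chance alone sets apart about 1 such group in 20. Csta, the stefin gene at the edge of the cluster, was also highest in that tumour, at 700.3 FPKM against 57.9 to 391 in its group.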

How the results depend on the processing

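Values of this locus rest on few libraries, and depth is unknown. The count of genes changed between genotypes in skin was 3, with 5 under a pseudocount of 0.1 and 3 to 8 with 1 library left out. In tumours it was 0, with 9 without a filter, 1 with the other libraries in the fit and 0 to 11 with 1 library left out. The interaction gave 4, and 1 to 15 with 1 library left out. Tumour against skin gave 1687 in WT (464 to 2115 with 1 library left out) and 4017 in TAp63-/- mice (2432 to 4446). Neither a member nor Gm1975 gained a call in any genotype or interaction test. Over the members and Gm1975, 245 alternative values kept their direction and 19 did not. The skin difference of Stfa3 was -0.10 and the interaction of Stfa2l1 -0.28 with a pseudocount of 0.1. With 1 library left out, skin differences ran from -0.22 to 1.47 for Stfa1, -0.74 to 0.46 for Stfa2, -0.85 to 2.19 for Stfa3, -0.59 to 2.07 for BC100530 and -0.23 to 0.17 for Gm1975. The tumour difference of Stfa2 ran from -0.022 to 3.08. The interaction ran from -0.25 to 1.44 for Stfa1 and from -0.97 to 1.69 for BC100530. Of the tumour and skin differences of the members and Gm1975, 11 alternative values moved and 217 did not. Of the list counts, 97 alternative values moved. Where WT cSCC was left with 1 library, that library was assumed to vary like the others. The cause of these shifts was not tested. No paired analysis was possible because the labels give the groups no shared replicate numbers.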
